A study of Mus musculus with 4 samples.

Results

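The genes described here are 38 extracellular metalloproteinases and inhibitors of the mouse: 16 matrix metalloproteinases (MMPs), 18 proteases of the ADAMTS family and 4 tissue inhibitors of metalloproteinases (TIMPs). They were chosen by family membership, as every non-control probe whose gene name in the array files is on a list of these names. The array carried 55 probes for them out of 55681, and all 38 genes were among its 35080 genes. Of the 38, 31 were well above background on at least 2 arrays and were tested among 24043 genes.

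The samples were mouse primary osteoblasts cultured for 72 h in 10% serum under 4 treatments: no added protein, written BMP2(-),LOXL2(-) in the labels; LOXL2 at 4 µg/ml, BMP2(-),LOXL2(+); BMP2 at 200 ng/ml, BMP2(+),LOXL2(-); and both proteins at those doses, BMP2(+),LOXL2(+). BMP2 is a bone morphogenetic protein that induces cartilage and bone, and LOXL2 belongs to the lysyl oxidases, secreted enzymes that start the cross-linking of collagen and elastin. Both cultures without BMP2 are labelled pre-osteoblasts and both cultures with it osteoblasts. Strain, age and genotype are not in the labels, nor whether the 4 cultures were independent preparations. With 1 array per treatment, each p-value below compares 2 arrays with 2 others and may cover technical spread only.

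MMPs are zinc-dependent enzymes that cut collagens, gelatin, proteoglycans and growth factor carriers. They are made with a propeptide that keeps them latent until it is removed. ADAMTS proteases carry thrombospondin repeats that anchor them in the matrix, and include the aggrecanases, which cut aggrecan and versican, and the enzymes that trim procollagens before fibrils form. TIMPs bind the active site of MMPs, and TIMP3 also blocks several ADAMTS enzymes. In the skeleton these families remodel osteoid and take part in the replacement of cartilage by bone.

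The arrays were alike in depth. Between 60.4% and 62.2% of 59305 non-control spots were well above background, no spot was saturated, and the 75th percentile of the intensity ran from 710.5 to 742.9. Of 10 osteoblast markers, 9 were above background on all 4 arrays, among them the collagen genes Col1a1 and Col1a2 and the osteoblast transcription factors Runx2 and Sp7. Intensities are given below after each array was scaled to a common 75th percentile of 725.6, and compare one probe across arrays, never different genes.

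Most of the family was expressed, and detection hardly differed between treatments. Untreated cells had 30 of the 38 genes well above background, cells with LOXL2 31, cells with BMP2 30 and cells with both proteins 28. Of the total, 27 genes were above background on all 4 arrays and 7 on none. The 7 were the neutrophil collagenase Mmp8, the gelatinase Mmp9, the stromelysin Mmp10, the macrophage elastase Mmp12, the procollagen-processing enzyme Adamts3, and Adamts19 and Adamts20. Mmp9 and Adamts19 were each read from a probe printed on 10 spots. For these 7 genes the arrays give an upper bound on the level and no comparison.

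**Figure D1:**
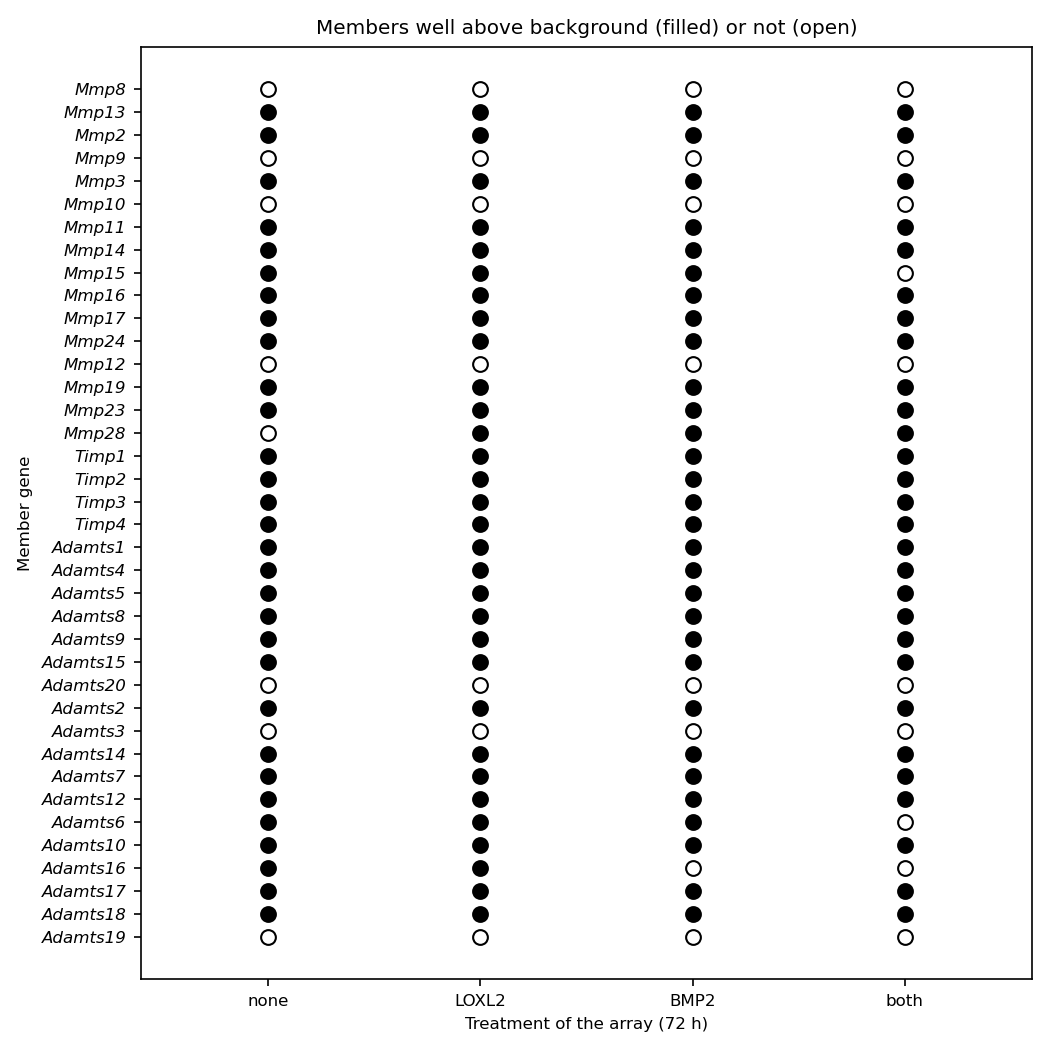
Each row is a member gene and each column an array (none, LOXL2, BMP2 or both proteins, 1 array each); a filled circle marks a gene with a probe well above background and an open circle a gene with none. Filled circles run across all 4 arrays for 27 genes, and 7 rows are open throughout.

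To find which of these genes BMP2 changed, the 2 arrays with BMP2 were compared with the 2 without it, with LOXL2 as a second term in the model. More members fell than rose. In limma, at an adjusted p under 0.05, 13 of the 31 tested members (41.9%) fell, against 9.87% of all genes tested, and 3 (9.68%) rose, against 10.2% of all genes. The share that rose was thus close to the background. Adamts16 was above background only without BMP2 and so passed the filter through the side where it was high. Over genes above background on both sides, 12 of 30 members (40%) fell, against 9.15% of 23507 genes. The median fitted log2 change was -0.50 over the 31 members and 0.02 over all genes. The test passed 20.1% of all genes, and the adjusted p of the 16 members that passed ran from 0.0208 to 0.0396. With no filter on dim probes 0 members and 0 of 35080 genes passed in limma, with a smallest adjusted p of 0.0907, although 22 members and 9245 genes were under 0.05 unadjusted. These are bulk samples, in which fewer cells of a type and less RNA per cell cannot be told apart.

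**Figure D2:**
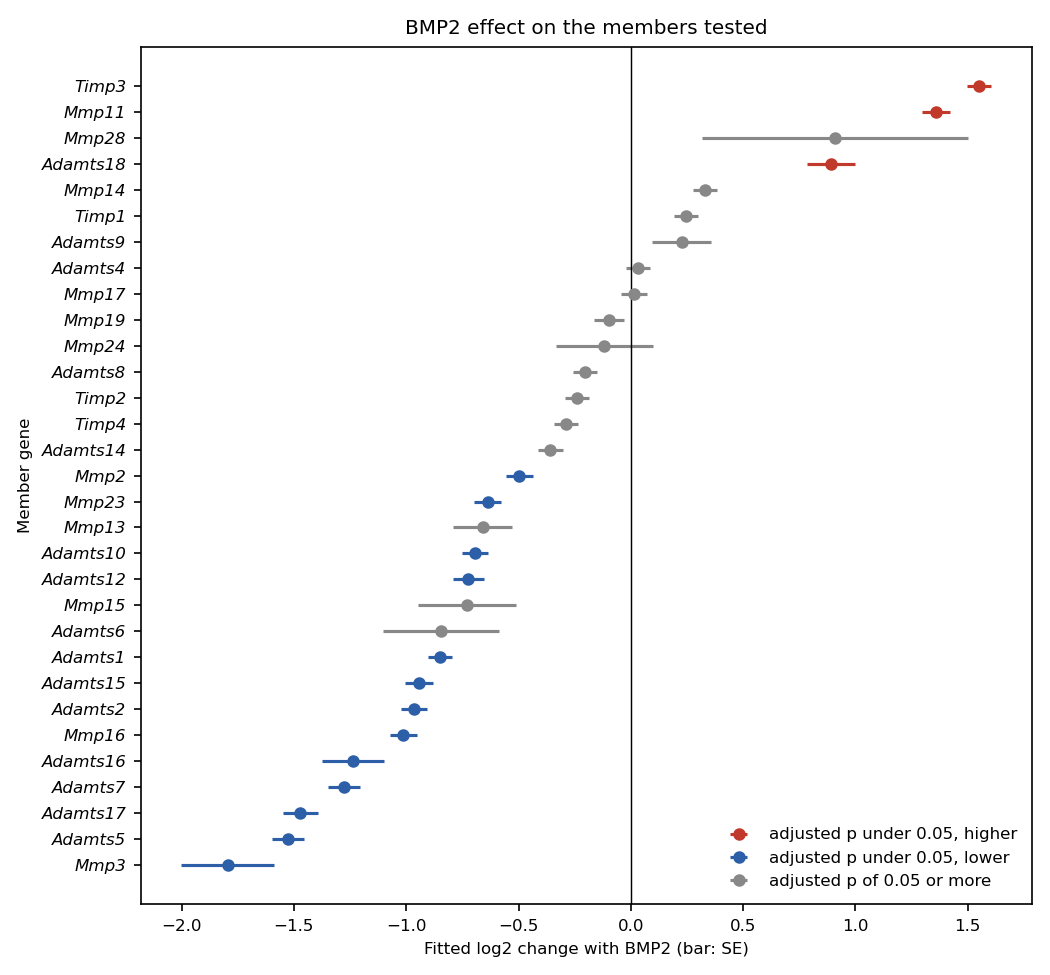
Points are the fitted log2 changes with BMP2 for the 31 members tested and bars are standard errors. The 13 genes that fell (blue) lie between -1.79 for Mmp3 and -0.50 for Mmp2, and the 3 that rose (red) are Timp3, Mmp11 and Adamts18.

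The ADAMTS family held most of the falls. Of 15 genes tested, 9 fell (60%) and 1 rose, with a median change of -0.84. Among the MMPs 4 of 12 fell and 1 rose, with a median of -0.31. Of the 4 TIMPs 1 rose. Of all genes tested 9.87% fell and 10.2% rose. The shares that rose, 6.67% of the ADAMTS genes and 8.33% of the MMPs, were thus not above that of all genes.

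Among the aggrecanases, Adamts5, the main aggrecanase of mouse cartilage, had an intensity of 612 in untreated cells, 619 with LOXL2, 224 with BMP2 and 203 with both. Both values with BMP2 lay far below both without it. For a gene that passed the test on these same arrays, here and below, such a separation adds no support. Adamts5 fell by 1.53 ± 0.07 on the log2 scale (fitted change ± SE, limma adjusted p = 0.0208), and a second probe of the gene gave -1.55. Adamts1, which cuts aggrecan and versican and lies beside Adamts5 on chromosome 16, read 10500, 10700, 5890 and 5880 in the same order. It fell by 0.85 ± 0.05 (limma adjusted p = 0.0245). The mm9 positions of these probes are chr16:85795044-85795103 for Adamts1 and chr16:85858402-85858461 for Adamts5.

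Adamts15, another aggrecanase, read 290, 250, 144 and 135 and fell by 0.94 ± 0.06 (limma adjusted p = 0.0256). The groups with and without BMP2 did not overlap. Adamts4, the aggrecanase induced by inflammatory cytokines in cartilage, read 2750, 2720, 2800 and 2790. Its fitted change was 0.03 ± 0.05 (limma adjusted p = 0.686), close to the median of all genes. Adamts9, which cuts versican, read 373, 318, 380 and 427 on its brighter probe, a change of 0.23 ± 0.13 (limma adjusted p = 0.298), while its dimmer probe gave -0.39.

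Adamts8 is the neighbour of Adamts15 on chromosome 9, and its probes disagreed. The brighter probe, at chr9:30751050-30751109 on mm9, read 612, 590, 520 and 524, a fitted change of -0.20 ± 0.06 (limma adjusted p = 0.103). The other, at chr9:30770384-30770443, read 294, 322, 41.5 and 31.2. When every probe on the array was fitted by itself, this second probe fell by 3.10 ± 0.17 (limma adjusted p = 0.0315 over all probes), the largest change of any member probe that passed the filter. The files do not say to which exon or untranslated region either probe belongs, so the result for Adamts8 depends on the probe. The first 30 of the 60 bases of each are shown because the call turns on them. The GC content over the full probe is 51.7% for the first and 35% for the second.
Adamts8 brighter probe: cagaagactcccgcaaagtgccaccaccct
Adamts8 dimmer probe: acccatttcaagtatttatgcaaatatgtc

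**Figure D3:**
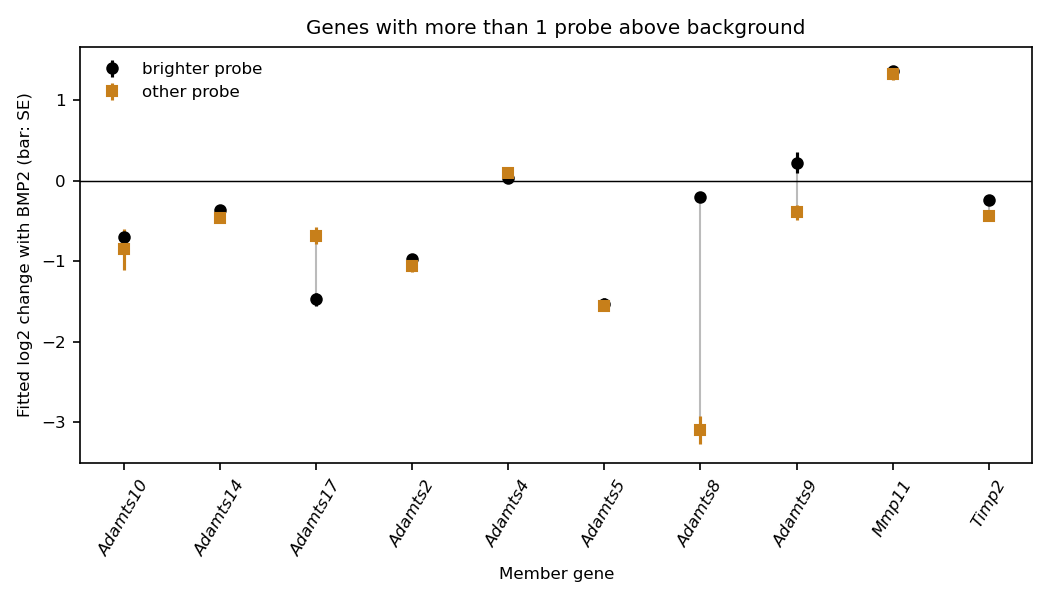
For the 10 members with 2 probes above background, the circle is the fitted log2 change with BMP2 at the brighter probe and the square that at the other probe, with standard errors. Probes of Adamts5, Adamts2 and Mmp11 nearly coincide, whereas those of Adamts8 lie at -0.20 and -3.10 and those of Adamts9 on either side of 0.

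Of the procollagen N-proteinases, which remove the amino-terminal propeptide of fibrillar collagens, Adamts2 is the best known. It read 51900 in untreated cells, 50500 with LOXL2, 27300 with BMP2 and 25100 with both. Adamts2 fell by 0.97 ± 0.06 (limma adjusted p = 0.0238), and its second probe by 1.05. Adamts14, a close relative, read 6300, 6510, 5040 and 4950. Its change of -0.36 ± 0.06 missed the threshold (limma adjusted p = 0.0508). Adamts14 passed with quantile normalization, normexp background, a filter for all 4 arrays, trend and robust eBayes, and the mean over probes. Adamts3, the third enzyme of the group, was not above background.

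Adamts7 and Adamts12, which cut the cartilage glycoprotein COMP, both fell. Adamts7 read 372, 367, 163 and 143, a fall of 1.28 ± 0.07 (limma adjusted p = 0.0229). Adamts12 read 79.2, 73.4, 45.6 and 46.9, a fall of 0.72 ± 0.07 (limma adjusted p = 0.0314). The substrate gene Comp rose by 2.42 ± 0.10 on the same arrays (limma adjusted p = 0.0208).

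Of the remaining ADAMTS genes, Adamts17 showed the next largest fall. It read 630 in untreated cells, 628 with LOXL2, 243 with BMP2 and 212 with both, and fell by 1.47 ± 0.08 (limma adjusted p = 0.0221). Its dimmer probe gave -0.68, with an adjusted p of 0.0608 in the limma fit of single probes. Adamts10, a fibrillin-binding member, read 285, 263, 172 and 166 and fell by 0.69 ± 0.06 (limma adjusted p = 0.0278). With the mean over its probes in place of the brighter probe the limma adjusted p was 0.0574.

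Adamts16 was above background on both arrays without BMP2, at 31.2 and 35.4, and on neither array with it, where it read 11.5 and 17.4. It entered the test only through the arrays where it was high, so its p is not independent of the filter. Against the lowest signal above background on each array, it was at least 2.09-fold lower with BMP2 (limma adjusted p = 0.0363). Adamts6 read 28.4, 40.4, 21.2 and 16.9 and was below background with both proteins, a change of -0.84 ± 0.26 (limma adjusted p = 0.122).

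Adamts18 was the 1 ADAMTS gene that rose. It read 32.6 in untreated cells, 40.4 with LOXL2, 67.3 with BMP2 and 67.3 with both. The rise was 0.89 ± 0.11 (limma adjusted p = 0.0394). A second, dimmer probe was above background only with both proteins, at 24.3, and read 3.54, 3.17 and 14.4 on the untreated, LOXL2 and BMP2 arrays.

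**Figure D4:**
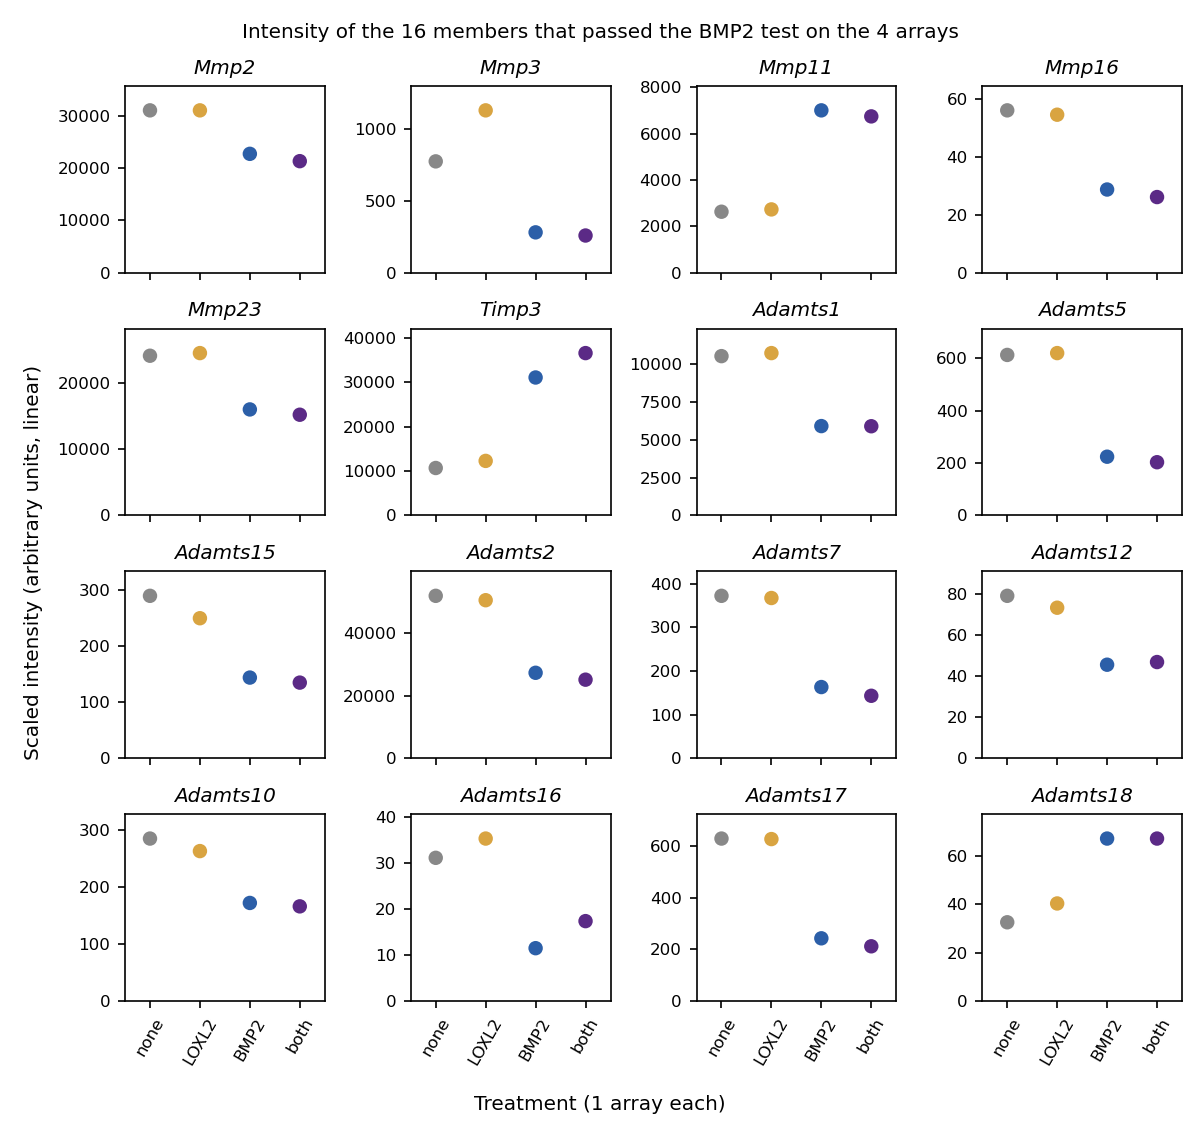
Each panel shows a member that passed the BMP2 test, with its scaled intensity (linear axis from 0) on the arrays without protein, with LOXL2, with BMP2 and with both. In every panel the 2 points with BMP2 lie on the same side of the 2 points without it. The members were chosen by the test on these same arrays, so this separation largely follows from the choice. Timp3, Mmp11 and Adamts18 are higher and the other 13 lower.

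Among the MMPs, the stromelysin Mmp3, which cuts proteoglycans and activates other MMPs, fell furthest. It read 775 in untreated cells, 1130 with LOXL2, 281 with BMP2 and 259 with both. All values with BMP2 lay below all values without it, although the arrays without BMP2 were themselves 0.54 apart on the log2 scale. Mmp3 fell by 1.79 ± 0.21 (limma adjusted p = 0.0378).

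Mmp3 lies in the MMP cluster of chromosome 9. On mm9 its probe is at chr9:7455751-7455810, and the probes of Mmp13, Mmp12, Mmp10 and Mmp8 are at chr9:7282762-7282821, chr9:7352935-7352994, chr9:7510011-7510070 and chr9:7568238-7568297 (Mmp12 has a second probe at chr9:7360373-7360432). Of these 5 genes Mmp3 and Mmp13 were above background, on all 4 arrays. Mmp13, the main collagenase of mouse bone and of hypertrophic cartilage, read 20300, 20000, 14700 and 11000. The array with both proteins was the lowest. Its change of -0.66 ± 0.13 missed the threshold (limma adjusted p = 0.0677), with differences of -0.46 without LOXL2 and -0.86 with it. Mmp13 passed in limma with normexp background (adjusted p = 0.0105), with a filter for all 4 arrays (adjusted p = 0.0467) and with trend and robust eBayes (adjusted p = 0.0401). Col10a1, a collagen of the same hypertrophic cells, rose by 8.33 ± 0.38 (limma adjusted p = 0.0208), and was above background on 1 of the 2 arrays without BMP2.

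The promoters of Mmp3, Mmp10, Mmp12 and Mmp13 are shown because these genes of the cluster lie together and share a motif. RefSeq promoter sequences (GRCm38.p6) were found for 24 of the 38 members, with 26 starts. The 250 bases before each start were searched on both strands for TGANTCA, the AP-1 motif bound by Fos and Jun proteins. It was present in 4 members, Mmp3, Mmp10, Mmp12 and Mmp13, all in the cluster, and in 6.75% of 32851 promoters of the same length. The first base of the motif lay at -46, -63, -44 and -35 from the start in that order (for Mmp12, at 1 of its 2 starts). The 120 bases before the start follow, with TGANTCA in capitals, and in Mmp13 also TGTGGT, the RUNX motif, read on the other strand as ACCACA.
Mmp3: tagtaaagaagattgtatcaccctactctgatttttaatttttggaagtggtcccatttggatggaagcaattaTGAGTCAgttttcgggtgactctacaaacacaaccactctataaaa
Mmp10: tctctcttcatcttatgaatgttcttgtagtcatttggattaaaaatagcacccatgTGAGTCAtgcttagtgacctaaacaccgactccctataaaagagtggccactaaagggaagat
Mmp12: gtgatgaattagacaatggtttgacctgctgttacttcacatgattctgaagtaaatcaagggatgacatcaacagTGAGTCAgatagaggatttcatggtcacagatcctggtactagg
Mmp13: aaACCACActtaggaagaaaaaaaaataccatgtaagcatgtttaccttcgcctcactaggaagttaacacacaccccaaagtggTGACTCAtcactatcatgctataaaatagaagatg

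On GRCm38 these windows are chr9:7445702-7445821, chr9:7502222-7502341, chr9:7347254-7347373 and chr9:7272394-7272513, all on the plus strand. The 4 promoters that hold the motif belong to 1 gene that fell, 1 that missed the threshold and 2 that were not above background. Mmp8, also in the cluster, was not among the members with a match, but only 24 of the 38 members had a promoter, so it may not have been searched. A member was counted once if any of its starts held a match, whereas all promoters were counted singly. TGTGGT was found in Mmp13, Mmp14 and Mmp23, and in 14% of all promoters. A match is a run of letters only, and binding was not measured.

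The gelatinase Mmp2 read 31000 in untreated cells, 31000 with LOXL2, 22700 with BMP2 and 21300 with both. It fell by 0.50 ± 0.06 (limma adjusted p = 0.0396), the smallest fall that passed. In the limma fit of single probes it missed the threshold, with an adjusted p of 0.0522. Mmp14, the membrane-type enzyme that activates the Mmp2 proenzyme and is itself a collagenase, read 7410, 6880, 9350 and 8640. Its change of 0.33 ± 0.05, in the opposite direction to that of Mmp2, missed the threshold (limma adjusted p = 0.0508). Mmp14 passed with median centring and under the same 3 settings as Mmp13.

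Mmp16, a second membrane-type enzyme, was dim but above background throughout, at 56.0, 54.5, 28.7 and 26.1. It fell by 1.01 ± 0.06 (limma adjusted p = 0.0235). Mmp23, a membrane-bound protease with a cysteine-rich domain in place of hemopexin repeats, read 24100, 24500, 16000 and 15200 and fell by 0.64 ± 0.06 (limma adjusted p = 0.0306).

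Mmp11, stromelysin-3, rose against the trend of its family. It read 2630 in untreated cells, 2730 with LOXL2, 7000 with BMP2 and 6740 with both. The levels with and without BMP2 did not overlap. Mmp11 rose by 1.36 ± 0.06, or 2.57-fold (limma adjusted p = 0.0208), and its second probe by 1.33. Mmp11 is activated inside the cell by furin-type convertases, and it cuts few intact collagens.

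The other MMPs tested did not pass. Mmp17 and Mmp19 stayed within 458 to 433 and 408 to 360 on the 4 arrays, with changes of 0.01 ± 0.06 and -0.10 ± 0.07. Mmp15, Mmp24 and Mmp28 were dim, between 8.60 and 42.9, and their standard errors of 0.22, 0.22 and 0.59 left wide margins. Over these 5 genes the limma adjusted p ran from 0.119 to 0.887.

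Of the inhibitors, Timp3, which stays bound to the matrix and blocks aggrecanases as well as MMPs, rose. It read 10700 in untreated cells, 12300 with LOXL2, 31100 with BMP2 and 36600 with both. The rise was 1.55 ± 0.05, or 2.93-fold (limma adjusted p = 0.0208). The 3 soluble inhibitors changed less and missed the threshold. Timp1 read 85500, 86700, 103000 and 102000, a change of 0.25 ± 0.05 (limma adjusted p = 0.0746). Timp2, which also takes part in Mmp2 activation with Mmp14, read 310000, 313000, 268000 and 260000, a change of -0.24 ± 0.05 (limma adjusted p = 0.0809). Its dimmer probe read 44200, 40900, 32700 and 30400. That probe gave -0.43, with an adjusted p of 0.0528 in the limma fit of single probes. Timp4 read 175, 155, 146 and 124, a change of -0.29 ± 0.06 (limma adjusted p = 0.0635). Timp2 and Timp4 were lower, and Timp1 higher, on each array with BMP2 than on its partner without. The 2 pairs had the same sign in 79.4% of all genes.

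The promoters of Mmp11 and Timp3, the genes with the largest rises, are shown beside those of the cluster. Neither held TGANTCA in the 250 bases searched, which only 4 of the 24 members with a promoter did. Adamts1, Adamts2 and Mmp23, which fell, lacked it as well. Capitals mark GGCGCC, a motif bound by Smad proteins of the BMP pathway, and GGGCGG, the SP motif, on either strand. GGCGCC was present in 5 of the 24 members (Mmp11, Mmp23, Adamts2, Adamts9 and Adamts14) and in 9.59% of all promoters, and GGGCGG in 15 members and in 32.7% of all promoters. On GRCm38 the windows are chr10:75932503-75932622 on the minus strand for Mmp11 and chr10:86300292-86300411 on the plus strand for Timp3.
Mmp11: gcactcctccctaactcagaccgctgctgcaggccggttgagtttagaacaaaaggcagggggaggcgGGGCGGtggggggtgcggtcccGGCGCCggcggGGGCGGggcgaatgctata
Timp3: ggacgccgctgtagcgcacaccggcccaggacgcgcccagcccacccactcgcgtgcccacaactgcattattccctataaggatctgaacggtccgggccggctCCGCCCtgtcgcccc

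Of the 5 members with GGCGCC, Mmp11 rose, Adamts2 and Mmp23 fell, and Adamts9 and Adamts14 did not pass the test.

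The BMP2 difference was next read within each pair of arrays, untreated against BMP2 and LOXL2 against both proteins, which share no array and have no test. In 28 of the 31 members it had the same sign in both pairs, against 79.4% of all genes. Adamts5, Adamts7, Adamts16, Adamts17 and Mmp3 were at least 2-fold lower in both pairs, against 2.74% of all genes. Over genes above background on both sides these were 4 of 30 members, without Adamts16, against 2.05% of genes. Mmp11 and Timp3 were at least 2-fold higher in both, against 2.06% of all genes. For Timp3 the differences were 1.53 and 1.57 on the log2 scale, and for Mmp3 -1.46 and -2.12. Mmp24, at -0.47 and 0.23, and Mmp28, at 1.88 and -0.07, were the members whose pairs disagreed most in direction, and both were dim. Mmp28 was below background in untreated cells, and with the lowest signal above background in its place the first difference was 1.16.

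**Figure D5:**
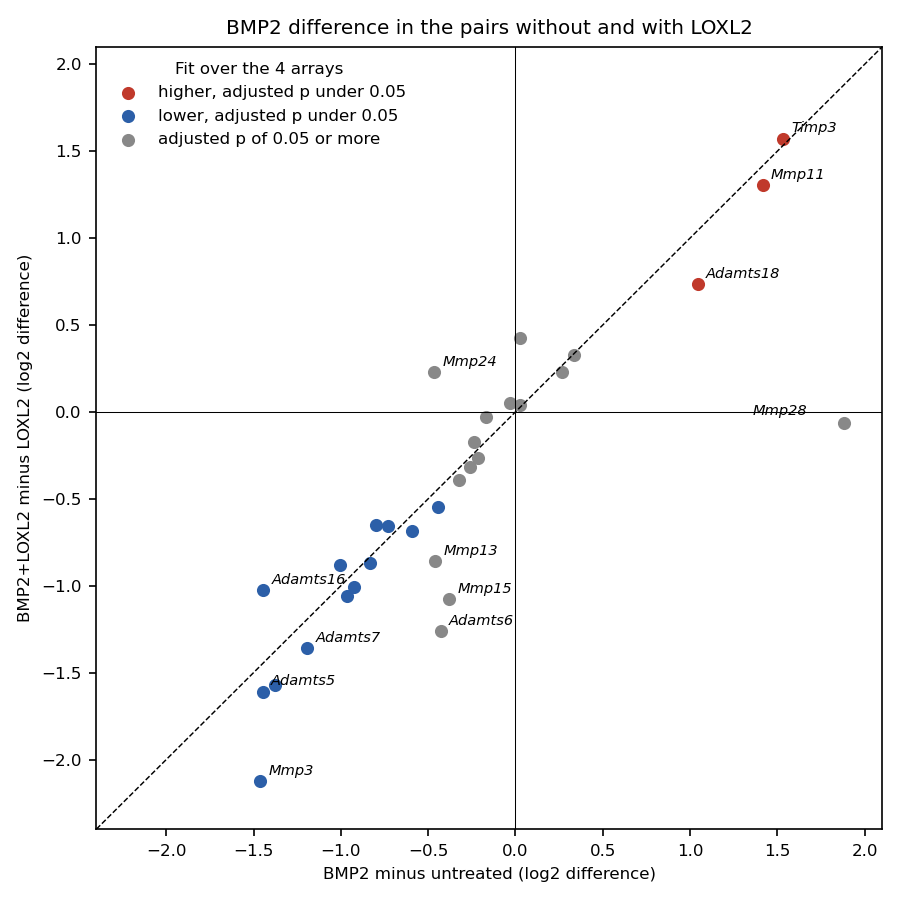
Each point is a tested member, with the log2 difference between BMP2 and untreated cells on the horizontal axis and that between both proteins and LOXL2 on the vertical axis; the dashed line marks equal differences. Members that fell lie in the lower left, Timp3, Mmp11 and Adamts18 in the upper right, and Mmp28, below background in untreated cells, far from the line.

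LOXL2 was compared in the same fit. In limma 0 of the 31 members and 0 of 24043 genes passed (0% of genes called), and the smallest adjusted p among members was 0.79. At an unadjusted p under 0.05 there were 2 members and 1485 genes (6.18%). With the trend and robust settings of eBayes 14 genes passed, 0 of them members. The 2 members were Timp3, with a fitted change of 0.22, and Timp4, with -0.21. The fitted median was -0.04 over the members and -0.00304 over all genes. In both LOXL2 pairs 0 members were at least 2-fold higher, against 0.0707% of all genes, and 0 were at least 2-fold lower, against 0.0665%. Over pairs with both arrays above background, the single differences ran from -0.49 for Mmp28 on the arrays with BMP2 to 0.54 for Mmp3 on those without it.

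Genes that act with these families were followed by list. The counts in these lists are to be read beside all genes tested, of which 10.2% rose with BMP2 and 9.87% fell. Of 7 other Mmp genes, Mmp1a, Mmp20, Mmp21 and Mmp25 were below background on every array. Mmp27, which lies beside Mmp8, was tested. It was above background on both arrays without BMP2 and on neither with it, and at least 4.76-fold lower with BMP2. Mmp27 missed the threshold (limma adjusted p = 0.0859). It entered the test only through the arrays where it was high, so neither its p nor its fold is independent of the filter. Of 5 ADAMTS-like genes tested, which encode ADAMTS relatives without a protease domain, 1 rose and 2 fell. Adamtsl5 rose by 0.62, Adamtsl1 fell by 1.03 and Adamtsl4 fell by 0.82. Of 10 membrane-anchored ADAM proteases tested, 3 fell, Adam33 by 1.38, Adam12 by 0.63 and Adam23 by 0.53. Of 4 astacin proteases and enhancers, which mature the other end of procollagen, Tll1 fell by 1.58 and Pcolce, the enhancer of procollagen C-proteinase, by 0.53.

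Of 12 proteases that can activate latent MMPs, or their receptors, 4 rose and 2 fell, with a median of 0.18. The urokinase gene Plau fell by 0.98, while its receptor gene Plaur rose by 0.73. The proprotein convertase Pcsk6 rose by 0.78 and the lysosomal cathepsin Ctsl by 0.60. Of 11 further inhibitors and clearance receptors 2 rose and 4 fell, with a median of -0.38. Serpinb2, an inhibitor of urokinase, rose by 3.63 ± 0.05 and Serpine2 by 0.53. Reck, a membrane-anchored inhibitor of several MMPs, fell by 0.67. The matrix proteoglycan gene Spock3 was above background only without BMP2, entered the test through that side, and was at least 3.21-fold lower with BMP2. Limma adjusted p was 0.0208 for Serpinb2, 0.0335 for Serpine2, 0.034 for Reck and 0.0264 for Spock3.

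Of 13 substrate genes 4 rose and 2 fell, with a median of 0.22. The aggrecanase substrate Acan rose by 3.54 and the collagen gene Col2a1 by 2.29. For Vcan, the versican gene cut by the same enzymes, the change was 0.33 with a limma adjusted p = 0.0632. The falls were those of elastin, Eln, by 0.78 and decorin, Dcn, by 0.67, both named after their values were seen. Of 14 transcription factors that act on MMP promoters 5 rose and 1 fell, with a median of 0.05. The largest changes were those of Sp7 with 2.23, Mef2c with 1.42 and the AP-1 components Fosl1 with 0.99 and Junb with 0.80. Fos, the 1 gene of the list that fell, by 0.45, Ets1, which rose by 0.66, and Runx2, which acts on the Mmp13 promoter and had a change of 0.08 (limma adjusted p = 0.366), are named after their values were seen.

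Markers of osteoblasts and of other cell types moved on the same arrays. Of all genes tested, 10.2% rose with BMP2 and 9.87% fell. Summed intensities follow the brightest probes, so they are given beside the counts and the median change. All 12 chondrocyte markers rose, by a median of 3.18. Their summed intensity was 41300 to 47900 without BMP2 and 191000 to 295000 with it. Matn1 was above background only with BMP2 and entered the test through that side. Of 14 macrophage and leukocyte markers 6 fell, with a median of -0.51 and sums of 29800 to 30900 without BMP2 and 23800 to 25200 with it, of which Itgam made 64% to 67.8%. Of 8 tendon and fibroblast markers 5 fell and 1 rose, with a median of -1.0. Their sums of 58400 to 59100 and 65700 to 68500 ran the other way, and 61.5% to 89.5% of them came from Ly6a, the marker that rose. Of 7 osteoclast markers tested 2 rose and 1 fell, with sums of 68900 to 71700 and 92800 to 93000 (64.6% to 71.2% from Ctsk). Calcr and Dcstamp were below background on every array and not tested. Of 5 neutrophil markers tested 1 rose and 1 fell, with sums of 51600 to 57500 and 56000 to 57500 (85.9% to 87.7% from Csf3r). S100a9, Ngp and Ltf were below background and not tested. Of 5 endothelial markers tested 2 fell, with sums of 22400 to 23000 and 21600 to 22700 (97.9% to 98.5% from Kdr). Emcn and Tie1 were below background and not tested. Of 4 muscle markers tested 2 fell, with sums of 16600 to 17400 and 7300 to 7690 (94.5% to 96.6% from Acta1). Ckm and Mylpf were below background and not tested. Of 6 adipocyte markers 0 passed in limma, with sums of 8400 to 8540 and 9110 to 9220 (41.5% to 48.8% from Fabp4). The median change was -0.05 for osteoclast, 0.05 for neutrophil, -0.40 for endothelial, -0.34 for muscle and 0.17 for adipocyte markers. The part of these cell types in the changes of the proteases and inhibitors was not tested.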

How the data were processed

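Total RNA (100 ng) was labelled with Cy3 per the labels' protocols and hybridised to 4 single-colour Agilent arrays, 1 per treatment. The deposited scanner files hold an intensity per spot, which the authors extracted with Agilent software (Feature Extraction 10.7.3.1 in the submitters' processing notes). Spatial and multiplicative detrending and surrogate values for low signals were on and a separate background correction was off, per the file headers. Probe positions are on mm9. The deposited values of the series, also intensities, equalled the mean spot signal within 0.1% for at least 99.52% of probes, and was used as an alternative. Other columns used were flags set by the same software.

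From the log2 of each processed spot signal, the 75th percentile over the array's non-control spots was subtracted. Spots marked as outliers (109 to 144 per array) were left out, and spots of a probe were averaged. A probe counted as above background where most of its spots did, and was kept if it was so on at least 2 arrays. The probe with the highest mean stood for a gene. Other probes were named by accession through a RefSeq table (GRCm38.p6), which matched 26762 of 55681, or by the file.

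An additive model of BMP2 and LOXL2 was fitted with limma 3.58.1 (R 4.3.3) over 24043 genes, with 1 residual degree of freedom, 1.72 added by eBayes and Benjamini-Hochberg adjustment at 0.05. The residual is the interaction of the proteins, so a gene whose BMP2 response depends on LOXL2 has a large error. The number of arrays limits the precision. Over probes with 10 spots the median log2 SD of spots within an array was 0.0645 to 0.0672, which leaves out variation between cultures.

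Where 1 side was below background on all its arrays, its value was set to the higher of its own signal and the array's lowest one above background (12.9 to 14.6), and the fold is a lower bound. Members that passed the test, differed 2-fold in both pairs or were above background on 1 side only are given in full, and of each list up to 4 genes with the largest changes that passed, with Acan, Vcan, Col2a1 and Col10a1. Values per array of other members, such as Adamts4, Adamts8, Mmp13 and the soluble TIMPs, are given for their roles and were chosen after they were seen. Members and lists were chosen with earlier results of these data known. Scaling, background correction, dim-probe filter, variance model, probe choice, outlier spots and source of values were varied.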

Additional observations from a re-analysis of the deposited data

Results flagged for a closer look

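In 3 members the BMP2 difference pointed one way without LOXL2 and the other way with it, and the difference between the pairs was not tested, since each value rests on 2 single arrays. Mmp24 differed by -0.465 without LOXL2 and 0.23 with it. Mmp28 differed by 1.88 and -0.0653, and was below background on the untreated array, so that the first value is not a measured size. Mmp17 differed by -0.0281 and 0.053, less than the SD of spots within an array, which was 0.0645 to 0.0672.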

How the results depend on the processing

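The 16 members that passed with BMP2 passed again under quantile normalization, median centring, normexp background, trend and robust eBayes, with outlier spots kept and from the deposited value table. With the mean over probes 15 did, all but Adamts10. Of those above background on all 4 arrays 15 did, and Adamts16 was not tested. With no filter on dim probes 0 members rose, 0 fell and 0 genes passed. With normexp 5 members rose, 17 fell and 9053 genes passed with BMP2. With trend and robust eBayes 5 members rose, 18 fell, and 10375 genes passed with BMP2 and 14 with LOXL2. Calls gained under at least 1 setting were those of Mmp13, Mmp14, Adamts6, Adamts8, Adamts14, Timp1, Timp2 and Timp4. The median over members was -0.614 with quantile normalization, -0.248 with normexp, -0.324 with no filter, -0.358 above background on all arrays and -0.638 with the mean over probes; the causes were not tested. By a laxer detection flag 33 members were detected on every array. With each probe fitted by itself, chosen after seeing the data, 3 members rose and 13 fell, but Mmp2 was lost and Adamts8 gained. Without Adamts16, also a count added after seeing the data, 12 members fell. No paired analysis was possible because each treatment has 1 array and the labels give no replicate numbers, and leaving out an array leaves no residual degree of freedom.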
